A study of Rattus norvegicus with 6 samples.

Results

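The 1655 loci described here are the transcribed loci that the authors listed without a known gene, under identifiers of their own in place of Ensembl ones. They were taken by the prefix of that identifier alone, with no measured value, are named here by position and by the protein name the authors entered, and make up 4.79% of the 34538 rows with an identifier. RNA came from the femoral fracture of female Sprague Dawley rats, an outbred stock, in which both ovaries had been removed at 8 weeks of age to induce osteoporosis. After a further 12 weeks the left femur was cut across at midshaft and held by a 1.2 mm nail inside the marrow cavity. All 6 libraries share that operation, and 1 cm of bone around the fracture was taken. Gel (3 libraries, titled Con) had the gel alone injected around the fracture, and MgPA-Gel (3 libraries, titled MOF_Gel) had the MgPA-Gel adhesive, a hydrogel that the series title ties to plant phosphate coordination compounds. The labels put the rats at 6 weeks of age in the growth protocol, give no time of harvest, and do not state if samples within a group are separate animals. A p-value here therefore measures spread between samples that may differ only technically.

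Gene annotation of a genome is incomplete, and an assembler joins aligned reads into transcript models without relying on it. Models that fall outside known genes can be missing exons of known genes, whole genes absent from that annotation, long non-coding RNAs, readthrough beyond a gene's last exon, or copies of repeats and pseudogenes. A long non-coding RNA is a transcript with no evident protein product, and many lie beside or opposite a coding gene. In bone marrow and a healing fracture, blood-forming cells, muscle, vessels and bone cells all contribute RNA. In such bulk tissue fewer cells of a type and less RNA per cell cannot be told apart.

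The sequences shown are those of named genes beside which, or at the place of which, loci of this kind lay. They come from the RefSeq tables for the build GRCr8, in which the authors' coordinates do not apply. The promoters, 250 bases before to 50 bases after the gene start, are given for Ttn (titin, the spring protein of the sarcomere) and Atp2a1 (SERCA1, the calcium pump of fast muscle fibres), because the loci bearing their names were highest in the same library. That of Sorl1, an endocytic sorting receptor, is given for a locus that was highest in another library. Capitals mark CANNTG, which reads the same on both strands and is the core letters that basic helix-loop-helix factors bind. All 3 genes are on the minus strand, Ttn at chr3:82332061-82332360, Atp2a1 at chr1:190475361-190475660 and Sorl1 at chr8:51401198-51401497, and each line reads 5′ to 3′.
Ttn: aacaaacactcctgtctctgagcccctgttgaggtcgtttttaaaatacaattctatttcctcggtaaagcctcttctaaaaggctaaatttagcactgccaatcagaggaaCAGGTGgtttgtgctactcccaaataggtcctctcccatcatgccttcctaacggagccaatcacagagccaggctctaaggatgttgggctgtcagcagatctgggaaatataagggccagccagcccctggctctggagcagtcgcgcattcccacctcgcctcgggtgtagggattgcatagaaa
Atp2a1: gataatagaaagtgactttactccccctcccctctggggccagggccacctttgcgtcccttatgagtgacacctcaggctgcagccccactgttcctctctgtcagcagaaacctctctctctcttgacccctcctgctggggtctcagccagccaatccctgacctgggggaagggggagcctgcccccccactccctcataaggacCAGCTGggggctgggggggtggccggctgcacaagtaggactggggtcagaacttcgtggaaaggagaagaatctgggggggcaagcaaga
Sorl1: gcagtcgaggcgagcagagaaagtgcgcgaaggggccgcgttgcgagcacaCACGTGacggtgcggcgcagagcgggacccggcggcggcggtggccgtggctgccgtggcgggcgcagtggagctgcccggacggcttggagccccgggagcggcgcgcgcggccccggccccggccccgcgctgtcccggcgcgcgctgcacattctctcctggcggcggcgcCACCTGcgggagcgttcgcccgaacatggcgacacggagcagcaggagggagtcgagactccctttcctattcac
CANNTG was found 1 time each in the Ttn and Atp2a1 promoters and 2 times in that of Sorl1, and 72.1% of the 33469 promoters of the same length hold it. The MEF2 site, searched by its usual degenerate letters on both strands, was found 1 time in the Ttn promoter, against 3.29% of all promoters. TATAAA, searched on both strands (14.2% of all promoters), and the CArG box (1.64%) were found in none of the 3. Overlapping matches of different motifs were each counted.

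Loci without annotation also lay next to 2 microRNA genes on the same strand. Mature RNAs of these genes are shown because a locus before a microRNA gene is one place where a precursor transcript can lie, with the seed (bases 2 to 8) in capitals. The source used listed no rno-miR-99a-5p, so for Mir99a the 3p RNA alone is shown.
rno-miR-322-5p: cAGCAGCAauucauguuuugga
rno-miR-322-3p: aAACAUGAagcgcugcaaca
rno-miR-99a-3p: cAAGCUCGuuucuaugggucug
The 3 seeds differ from each other. One locus (chrX:158145201-158147796, plus strand in the authors' coordinates) ended 365 bp before Mir322, and another (chr11:15949081-16050483, plus strand) ended 1670 bp before Mir99a. Counts of the locus before Mir322 were 11, 37 and 29 (Gel 1 to 3) and 26, 28 and 15 (MgPA-Gel 1 to 3). The locus before Mir99a had 15, 16 and 45 (Gel) and 47, 16 and 14 (MgPA-Gel). Below, values in 2 sets of 3 are always those of Gel 1 to 3 and then of MgPA-Gel 1 to 3. The libraries of the groups overlapped at both loci. The libraries were made from poly-T selected RNA, which is not a measure of mature microRNAs.

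The 6 libraries held 13.6 to 18.2 M counts (M, mega, 1e6 counts). Before the results, 3 of the libraries need naming. The summed level of skeletal muscle fibre markers (9 of 12 matched by symbol) was 41630 CPM in MgPA-Gel 1 and 11.9 to 1460 CPM in the other 5 libraries. CPM here is counts per M counts after scaling by TMM factors. Neutrophil markers (10 of 10 matched) summed to 2175 CPM in MgPA-Gel 2 and to 77.5 to 772 CPM elsewhere, and inflammatory macrophage markers (7 of 8) to 2788 CPM in MgPA-Gel 2 and 55.3 to 286 CPM elsewhere. Of these lists, Ltf, Cxcl2 and Il1a were at 0 in some library. Mitochondrial genes held 24.02% of all counts of Gel 1 and 25.9% of those of MgPA-Gel 1, against 5.29% to 8.83% in the other 4. Osteoblast markers (8 of 8) summed to 57890 to 108000 CPM in Gel and 41480 to 66360 CPM in MgPA-Gel, so the defining genes of bone were present in every library. Erythroid markers (5 of 7 matched) ran from 129 to 2118 CPM in Gel and from 250.1 to 4405 CPM in MgPA-Gel.

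Most of the loci were present at low levels. The mean over the libraries had a median of 0.503 CPM, a quartile range of 0.167 to 1.72 CPM and a top value of 2641 CPM. A mean of at least 1 CPM was reached by 582 loci, 10 CPM by 128 and 100 CPM by 15. Of the 1655 loci, 25 had no count in any library, 856 had a count in all 6 libraries, and 456 stayed under 10 counts in every library. Few loci carried most of the reads. The 2 most abundant held 30% of all counts in unannotated loci, the 8 most abundant 51.0% and the 50 most abundant 74.6%. A filter on low counts (edgeR's filterByExpr) passed 700 loci (42.3%), near the 42.9% of other rows, and left 955 untested.

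Together the loci took a small and even share of the counts. It was 1.18%, 1.25% and 1.37% in Gel and 1.30%, 1.27% and 1.12% in MgPA-Gel. The lowest and the highest value belonged to different groups and the groups overlapped. The mean was 1.27 ± 0.0988% in Gel and 1.23 ± 0.0983% in MgPA-Gel (SD, n = 3 each), a difference of -0.0380 percentage points (exact two-sided permutation p = 0.7, where 3 against 3 cannot go below 0.1). The difference turned positive, to 0.0910, when the 5 most abundant loci were removed (p = 0.2 by the same exact permutation test). It was also positive without Gel 3 (0.0155) and without MgPA-Gel 3 (0.0184).

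The loci were short. The deposited gene length ran from 200 to 12716 bp with a median of 581 bp (quartiles 327 and 1234 bp). Annotated lincRNAs (long intergenic non-coding RNAs, 3090 rows) had a median of 537 bp and protein-coding genes (22250 rows) one of 1865 bp. The stretch of genome from first to last base had a median of 3126 bp and reached 325216 bp. In 1404 loci the length was shorter than that stretch, which is how spliced models are listed, and in 251 the values were equal. The 3 longest lay at chr11:61997028-62009743 (12716 bp, same strand as Gramd1c, which it overlaps), chr19:55042537-55083935 (12691 bp) and chr18:78552158-78582994 (11141 bp), with mean levels of 20.5, 52.6 and 0.856 CPM. The middle one carried the protein name zinc finger protein 469, and Zfp469 lies between the same neighbours, Banp and Zfpm1, in GRCr8. Zfp469 is on the other relative strand or has no strand listed, which were not told apart. Strands were near balance, with 796 loci on the plus strand and 859 on the minus strand.

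A count in at least 1 library was found in 98.5% of unannotated loci and in 32.5% of annotated lincRNAs, and 42.3% against 4.76% passed the filter. The labels do not say which reads the loci were assembled from, so these shares are descriptions of a set that may have been defined by being detected. Of the tested loci the median level was 1.93 FPKM (fragments per kilobase and M fragments), beside 1.67 FPKM in tested lincRNAs and 8.02 FPKM in tested protein-coding genes. On this per-length scale the median over all unannotated loci was 0.917 FPKM.

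**Figure D1:**
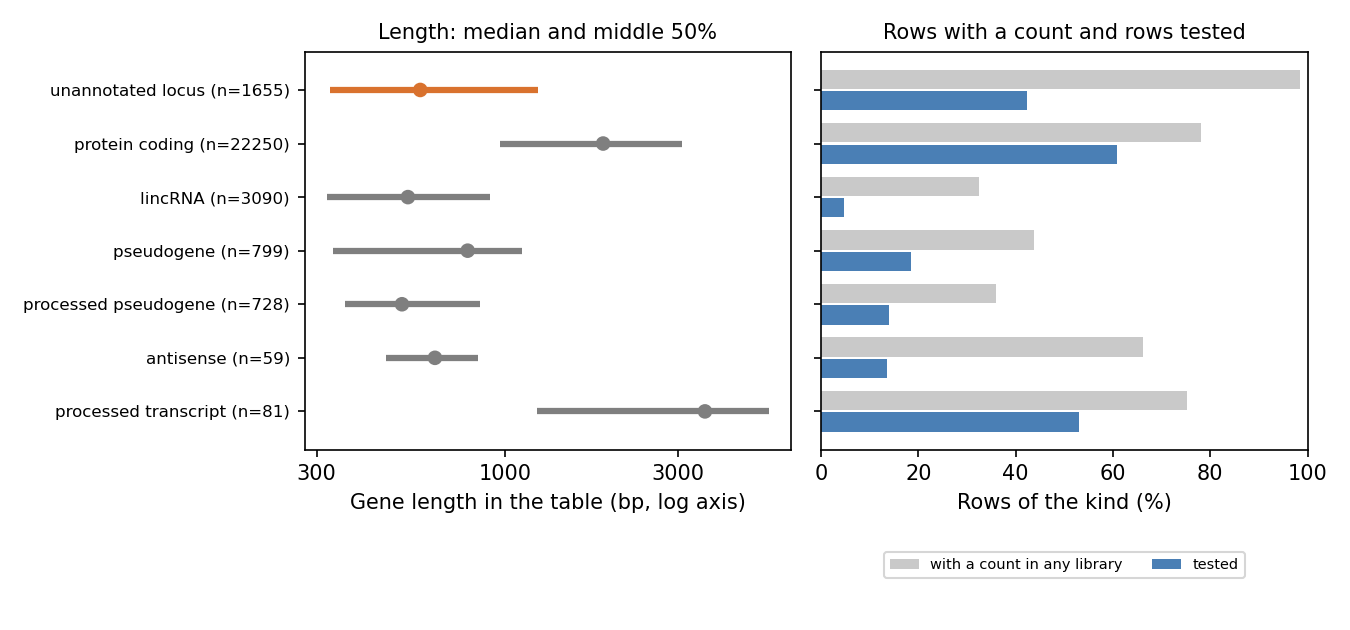
Left, the deposited gene length in bp on a log axis, as median (point) and middle 50% (bar), for unannotated loci and 6 annotated kinds of row. Right, bars give the percent of rows of each kind with a count in any library (grey) and the percent tested (blue); unannotated loci have a median of 581 bp, near the 537 bp of lincRNAs, and 98.5% of them have a count.

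Loci were found on every autosome and on X. Relative to annotated rows their number ran from 27.4 per 1000 on X (41 loci) to 67.9 per 1000 on chromosome 13 (66 loci). Chromosome 1 held the most, 169 loci, followed by chromosome 3 with 154. No locus was on Y or on the mitochondrial chromosome, which have 48 and 37 annotated rows here. The rats were female, so the absence from Y is no result about the loci. Chromosome 1 also took 30% of the counts in unannotated loci and chromosome 20 took 10.4%, of which most came from a single locus on each.

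Unplaced scaffolds, pieces of assembled sequence not set on a chromosome, held 30 loci on 28 scaffolds. That is 1.81% of the loci, beside 0.791% of the other rows (260 rows). Of the 30, 9 passed the filter. The share of counts in scaffold loci was 0.00233%, 0.00237% and 0.00240% (Gel) and 0.00249%, 0.00212% and 0.00219% (MgPA-Gel). The groups overlapped, since MgPA-Gel 1 was the highest and the other 2 MgPA-Gel libraries the lowest. The mean shares differed by -9.85e-05 percentage points (exact two-sided permutation p = 0.4). That sign turned with FPKM in place of counts (0.00131) and with the 5 most abundant scaffold loci removed (0.000165).

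The most abundant scaffold loci were those on KL568161.1 (mean 5.04 CPM, no description), AABR07024262.1 (3.65 CPM, named FAM76A), AABR07024203.1 (2.26 CPM, named for the AP-2 beta subunit) and KL568117.1 (1.67 CPM, named for LAS1L, a ribosome biogenesis factor). Of these, the AP-2 locus is described among the comparisons of the groups. The other 3 had log2 fold changes (MgPA-Gel over Gel) of 0.32, -0.26 and 0.19, none past the threshold of edgeR's quasi-likelihood test (adjusted p = 0.998 each).

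Beside annotated genes the loci lay at a median distance of 9102 bp, among 1637 loci with an annotated row on the same sequence. Only 4 overlapped an annotated gene, each on the gene's own strand, and 131 were over 100 kb from any. Within 20 bp of a gene there were 45 more, and the arrangement was uneven. Past the gene's end, 28 were on the opposite strand and 0 on the same strand, while before its start 12 were on the opposite and 5 on the same strand. Within 1000 bp there were 351 loci, and the order changed, with 84 and 33 past the end and 140 and 94 before the start (opposite and same strand). Whether the library kit kept strand is not stated, so the strand of an unspliced locus may not be that of its RNA.

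**Figure D2:**
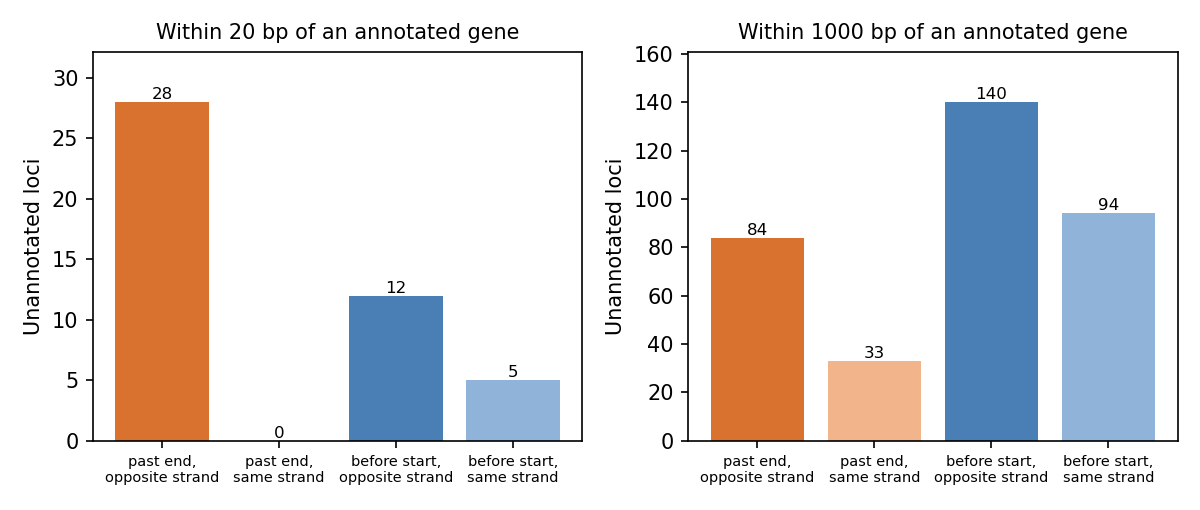
Number of unannotated loci within 20 bp (left) and 1000 bp (right) of an annotated gene, by side of the gene and by strand relative to it. Within 20 bp the 28 loci past the end on the opposite strand are the tallest bar and the same strand has 0; within 1000 bp the 140 loci before the start on the opposite strand are the most.

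The 28 tail-to-tail loci include some of the most abundant, among them the locus named KCTD12 (mean 616 CPM), described below. Of these the locus at chr14:104338486-104340429 (1944 bp, plus strand) averaged 379.6 CPM and lay 5 bp past the end of Actr2, a subunit of the Arp2/3 complex that nucleates branched actin. Its CPM was 422, 408 and 340.0 in Gel and 303, 427 and 378 in MgPA-Gel, and that of Actr2 was 181, 196 and 168 in Gel and 118, 230 and 232 in MgPA-Gel. MgPA-Gel 1 was the lowest library for both. Per length the levels were 195.5 FPKM for the locus and 112 FPKM for Actr2.

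A second (chr1:238978249-238982391, 4143 bp, plus strand) lay 1 bp past the end of Gda, guanine deaminase. It stood at 210.3, 289 and 140.9 CPM in Gel and 177, 424 and 194 CPM in MgPA-Gel. Gda stood at 51.4, 75.04 and 30.5 CPM and at 33.1, 104 and 49.9 CPM. Both were highest in MgPA-Gel 2 and the groups overlapped for both.

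Another (chr3:71202419-71205959, 3359 bp, minus strand) lay 8 bp past the end of Itgav, the integrin alpha V chain used by osteoclasts and many other cells. It had 286, 187 and 248 CPM in Gel and 163, 174 and 271 CPM in MgPA-Gel. Itgav itself had 79.9, 87.3 and 68.4 CPM in Gel and 38.4, 69.9 and 182 CPM in MgPA-Gel. MgPA-Gel 3 was the highest library for the gene, whereas Gel 1 was the highest for the locus.

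A later RefSeq annotation gives a view of identity that does not use the authors' descriptions. Of the annotated rows, 19088 of 32883 matched a gene of GRCr8 by symbol or synonym. In all, 1447 loci had both flanking genes matched and within 2 Mb of each other. Genes of GRCr8 that matched an annotated row were left out of the intervals, here and wherever genes between flanks are given. Between those flanking genes GRCr8 lists no further gene for 304 loci and at least 1 for 1143. For 801 of them a gene on the same relative strand lies between, and for 336 that gene is protein coding. A gene with no strand listed was not counted as on the same strand, so both counts may be too low. A gene in the same interval is not shown to be the same locus, since coordinates of different builds were not converted.

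Descriptions were listed for 451 loci and absent for 1204. A Swiss-Prot protein name, assigned by similarity, was given for 445, with 315 distinct names, and a Pfam domain for 145. Of the 445, 348 carried a name that an annotated row also carries and 97 one that none carries. An entry under the authors' heading of transcription factor family was listed for 68, of which 23 had the KRAB domain of zinc finger repressors. Other entries were general domains, such as fibronectin type III and retroviral Gag, so an entry does not mark a transcription factor. The 451 were sorted by words anywhere in the description, not in the name alone. By that sort 46 loci were immunoglobulin, T cell receptor or related, 34 zinc finger or transcription factor and 32 transposable element or retrovirus. There were 25 for ribosomal protein, 23 for receptor, channel or transporter and 15 for kinase or phosphatase. The rest were 7 muscle or cytoskeleton, 6 uncharacterized and 2 histocompatibility, with 261 others. The sort is by words alone, and some fall oddly.

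The 46 immunoglobulin and receptor loci were short (median 370 bp) and low, and 9 were tested. Their most abundant member (chr1:73010060-73017673) was named for a leukocyte immunoglobulin-like receptor and stood at 1.03, 3.58 and 0.586 CPM in Gel and 1.19, 14.3 and 0.761 CPM in MgPA-Gel. Next came a kappa variable segment (chr3:20561899-20661444), at 0.411, 3.12 and 0.733 CPM and at 6.63, 1.96 and 1.23 CPM. The first was highest in MgPA-Gel 2 and the second in MgPA-Gel 1, with overlapping groups.

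The 32 loci sorted under mobile elements were longer, at a median of 1935 bp, and 20 were tested. Names among them include those of endogenous retroviruses, which encode Gag, Pol and Env, and of LINE-1. The most abundant, named Pro-Pol (chr13:35873117-35877126, 4010 bp), had 134, 50.1 and 240.1 CPM in Gel and 182, 70.2 and 76.5 CPM in MgPA-Gel. The next, named Gag (chr1:137409332-137427290, 10483 bp), had 44.6, 62.0 and 48.4 CPM and 45.2, 51.4 and 61.0 CPM. The LINE-1 ORF2 locus (chr1:48122083-48129721, 6259 bp) had 22.8, 23.8 and 17.3 CPM and 43.8, 17.7 and 27.5 CPM. At each of the 3 the groups overlapped. Summed over the 32 the level was 318, 248 and 430 CPM in Gel and 380, 278.5 and 283.5 CPM in MgPA-Gel, and 9 of the 20 tested had a higher and 11 a lower mean in MgPA-Gel. Reads of such near-identical copies can be split or shared in counting, so these levels are uncertain.

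The 34 zinc finger and transcription factor loci had 22 tested, with 17 higher and 5 lower in MgPA-Gel on average. Over all genes tested 8116 were higher and 6702 lower. The median log2 fold change was 0.13 for the 22 loci, against 0.03 over all genes tested. None of the 22 was below an unadjusted p of 0.05 in edgeR, and the split was not tested. The most abundant (chr17:37546857-37617524) was named for SOX-4, a factor of progenitor cells, and had 61.4, 81.4 and 106 CPM in Gel and 80.1, 86.8 and 91.6 CPM in MgPA-Gel. The next (chr7:122863874-122889055) was named for the histone acetyltransferase p300 and had 50.1, 56.6 and 45.9 CPM and 49.5, 69.7 and 52.1 CPM. Ep300 lies on the same relative strand between the same flanks, Rbx1 and L3mbtl2, in GRCr8.

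The 16 tested loci sorted under ribosomal protein were 8 higher and 8 lower in MgPA-Gel on average. They include the scaffold locus named for LAS1L, which is not a ribosomal protein. The first by abundance (chr7:3030109-3053900, 1126 bp, minus strand) was named for RPS26 of the small ribosomal subunit, and Rps26 lies on the same relative strand between Erbb3 and Ikzf4 in GRCr8. Its CPM was 594, 623 and 441 in Gel and 656, 420.0 and 520.3 in MgPA-Gel, with overlapping groups. The second (chr10:103198392-103202060, 338 bp) was named for RPL38, and Rpl38 lies between its flanks, Sdk2 and Ttyh2. It had 97.4, 99.8 and 70.4 CPM in Gel, and 367, 98.3 and 86.2 CPM in MgPA-Gel, so MgPA-Gel 1 stood above the other 5.

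Of the 15 kinase or phosphatase loci 7 were tested. At the 2 most abundant the groups did not overlap, in opposite directions. Groups did not overlap in 6.86% of the tested loci and in 6.88% of all genes tested. The first (chr17:85627692-85749112, 857 bp, minus strand) was named for phosphatidylinositol 5-phosphate 4-kinase type-2 alpha, a lipid kinase, and Pip4k2a lies on the same relative strand between Spag6 and Armc3 in GRCr8. It had 5.14, 6.18 and 4.54 CPM in Gel and 6.31, 11.3 and 9.48 CPM in MgPA-Gel. Every MgPA-Gel library was above every Gel library, with a log2 fold change of 0.77 ± 0.30 (SE; unadjusted p = 0.0385, adjusted p = 0.998, edgeR), which did not pass the threshold. The second (chr3:59075643-59120503, 2043 bp, plus strand) was named for the kinase MLT, which acts in stress signalling, and lay 8274 bp past the end of Map3k20 on the same strand. Its level was 7.88, 6.41 and 6.08 CPM in Gel and 5.31, 5.87 and 5.56 CPM in MgPA-Gel, with a log2 fold change of -0.28 ± 0.24 (SE; adjusted p = 0.998, edgeR).

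Groups overlapped at the leading loci of the smaller classes. Among cytoskeleton names, a locus named for filamin-B, which crosslinks actin (chr15:17958788-17995421, 4418 bp, minus strand), had 24.7, 4.68 and 7.55 CPM in Gel and 11.3, 2.90 and 16.3 CPM in MgPA-Gel. The SREK1-interacting protein fell among those names by its letters (chr2:34923120-34941895, 503 bp, plus strand), at 6.44, 6.24 and 6.45 CPM in Gel and 1.75, 6.88 and 4.51 CPM in MgPA-Gel. MgPA-Gel 1 was lowest there, and Srek1ip1 lies on the same relative strand between Cwc27 and Shisal2b. Among uncharacterized names, the first (chrX:18440760-18457490, 829 bp, minus strand) had 17.9, 16.2 and 19.4 CPM in Gel and 25.9, 17.7 and 14.3 CPM in MgPA-Gel, and Nbdy, which encodes a small protein that binds the mRNA decapping machinery, lies on the same relative strand between Spin2a and Ubqln2. The next was put there by a word of its description outside the protein name. This locus was named for heparan-alpha-glucosaminide N-acetyltransferase, a lysosomal enzyme of heparan sulfate breakdown (chr16:70876579-70896702, 1188 bp, plus strand). It had 7.67, 13.3 and 12.6 CPM in Gel and 12.1, 14.0 and 9.48 CPM in MgPA-Gel. Hgsnat lies between Pomk and Kcnu1, on the other relative strand or with no strand listed. Both histocompatibility loci were named for an RT1 class I alpha chain, which presents peptides to T cells. That at chr20:130097-131294 (680 bp, minus strand) had 4.38, 3.12 and 2.78 CPM in Gel and 5.25, 5.68 and 2.69 CPM in MgPA-Gel. The other, on a scaffold, had 4, 8 and 2 counts in Gel and 6, 6 and 1 in MgPA-Gel and was not tested. Class I genes are near-identical copies, so reads may be split between them.

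The most abundant of all lay at chr1:11906605-11915465 (8203 bp, plus strand). Its protein name, assigned by similarity, is NLRC3, a member of the NLR family that restrains innate immune signalling. Whether the locus encodes such a protein was not tested. It lay 12 bp from a row for 5.8S ribosomal RNA (RF00002) on the opposite strand. The locus had 2441, 2049.6 and 3985 CPM in Gel, and 2580.0, 3095 and 1694 CPM in MgPA-Gel. The ribosomal row had 291, 5.14 and 256 CPM in Gel and 434, 442 and 179 CPM in MgPA-Gel. Gel 2 was thus far below the other libraries for the ribosomal row and not for the locus. The locus had a mean of 2825 ± 1023 CPM in Gel and 2456 ± 709 CPM in MgPA-Gel (SD, n = 3 each), with overlapping groups.

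The second (chr20:19484513-19485845, 993 bp, plus strand) was named for NADH-ubiquinone oxidoreductase chain 4, a subunit of respiratory complex I whose gene, ND4, is on the mitochondrial chromosome. It had 32243, 17821 and 16613 counts (Gel) and 32243, 805 and 9602 counts (MgPA-Gel), so the first library of each group had the same count. ND4 had 23878, 9086 and 6318 counts (Gel) and 15724, 6767 and 5703 counts (MgPA-Gel). The ratio of locus to ND4 counts was 1.35, 1.96 and 2.63 in Gel and 2.05, 0.119 and 1.68 in MgPA-Gel. MgPA-Gel 2 was lowest for the locus but not for ND4. Reads shared by near-identical copies may be split between the rows, which was not tested. On the CPM scale the log2 fold change was -0.76 ± 1.11 (SE), which moved to -2.28 without MgPA-Gel 1 and to -0.21 without MgPA-Gel 2.

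Perlecan and KCTD12 gave the names of the third and the fourth locus by abundance. Perlecan is a heparan sulfate proteoglycan of basement membranes and cartilage. The third locus (chr5:155885992-155914469, 7666 bp, plus strand) carried its name and lay 163 bp past the end of AABR07073181.1, on the same strand, a row whose name RefSeq lists as a synonym of the perlecan gene Hspg2. The locus had 592, 761 and 751 CPM in Gel and 389, 686 and 562 CPM in MgPA-Gel. The row before it had 62.6, 169.5 and 43.4 CPM in Gel and 41.6, 89.6 and 131 CPM in MgPA-Gel. Per length the locus was at 81.4 FPKM and the row at 11.8 FPKM, although their lengths are close (7666 and 7575 bp). KCTD12 is an auxiliary subunit of GABA-B receptors. The fourth locus (chr15:87384630-87389604, 4975 bp, plus strand) had 822, 537 and 694 CPM in Gel and 548, 455 and 642 CPM in MgPA-Gel. It lay 6 bp past the end of the annotated row AABR07019083.1, on the opposite strand. Kctd12 lies between the same flanks, Lmo7 and Mycbp2, in GRCr8, on the other relative strand or with no strand listed. Groups overlapped at both loci.

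Among other abundant loci named after their values were seen, 2 had flanks that enclose a known gene. One (chr10:94850971-94886250) carried the name of PECAM1, the adhesion molecule of endothelium and platelets. It had 199, 189.8 and 151 CPM in Gel and 146, 169.9 and 114 CPM in MgPA-Gel. Pecam1 lies between Tex2 and Polg2 in GRCr8, on the other relative strand or with no strand listed. The other (chr3:111397043-111410587, 7714 bp), with no description, was among the steadiest. It had 195, 191 and 232 CPM in Gel and 185, 203 and 187 CPM in MgPA-Gel, and the long non-coding RNA Oip5-as1 is the gene of GRCr8 between Chp1 and Oip5.

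The 3 steadiest tested loci by coefficient of variation lay at chr6:11067670-11069359 (4.67%, named putative calmodulin-3), chr4:7850052-7852214 (5.94%, 10 bp past the end of Rint1) and chr12:16959542-16974896 (6.05%, named Integrator complex subunit 1). The first had 196.5, 196.1 and 207 CPM in Gel and 186, 183 and 202 CPM in MgPA-Gel. The third had 47.96, 40.6 and 44.3 CPM and 42.4, 41.4 and 43.3 CPM, and Ints1 is the gene of GRCr8 between Mafk and Micall2.

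Over libraries the unannotated loci varied more than other genes, with a median coefficient of variation of 43.8% against 24.2%, over 700 and 14118 tested genes. At matched counts the medians lay closer, at 52.2% and 52.1% for a mean of 10 to 30 counts. At higher counts the loci were above the other genes, with 29.2% against 23.6% at 100 to 300 counts and 22.8% against 18% at 300 to 1000. At 1000 and over the medians were 21.3% (23 loci) and 18.6%. These are descriptions over genes, which share libraries.

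**Figure D3:**
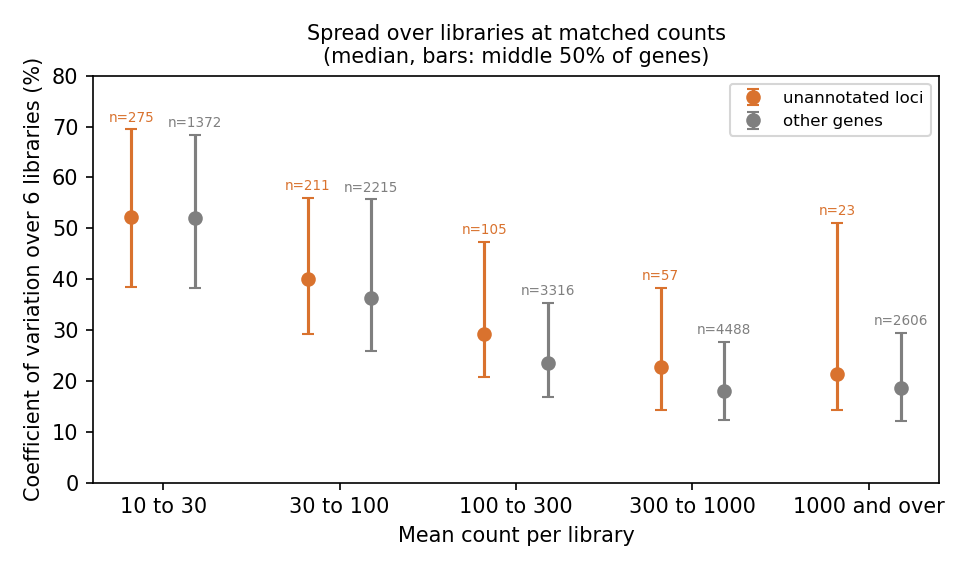
Median coefficient of variation over the 6 libraries, in percent, by mean count per library, for unannotated loci (orange) and other tested genes (grey); bars span the middle 50% of genes. The medians are alike at 10 to 30 counts (52.2% and 52.1%) and the loci lie above at 100 to 300 (29.2% and 23.6%).

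A single library led some loci. A library was taken to lead a locus where its CPM was at least 4 times that of the next library, a limit chosen after the values were seen. Of the 700 tested loci 23 (3.29%) were led, beside 2.68% of other genes (378). MgPA-Gel 2 led 13 loci (1.86%, other genes 0.772%), MgPA-Gel 1 led 9 (1.29%, other genes 1.70%) and Gel 2 led 1.

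The largest ratio of highest to lowest library was that of the locus with the SERCA1 name (chr1:197863420-197875135, 1684 bp, minus strand), the calcium pump whose promoter is shown above. It had 10.4, 4.97 and 0.293 CPM in Gel and 528, 4.42 and 27.6 CPM in MgPA-Gel. MgPA-Gel 1 and MgPA-Gel 3 were the highest libraries, and MgPA-Gel 2 lay among the Gel libraries. Atp2a1 is the gene of GRCr8 between the same flanks, Rabep2 and Sh2b1, on the same relative strand. The annotated row AABR07005775.1, a 543 bp row on the same strand that also carries the SERCA1 name, was the most alike of 14118 annotated genes over the 6 libraries. Likeness was the mean absolute difference of centred log2 CPM, 0.40 for that row and 0.40 for Myom2, a protein of the muscle M band. The log2 fold change was 5.15 ± 2.05 (SE; unadjusted p = 0.0454, adjusted p = 0.998, edgeR), and 1.61 without MgPA-Gel 1. The muscle marker sum was likewise highest in MgPA-Gel 1 and next in MgPA-Gel 3, and its part in this value was not tested.

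Titin, whose promoter is shown above, gave its name to a whole row of neighbouring loci. A run of 24 loci named titin lay on chr3:63615153-63809483, a stretch of 194 kb, all on the minus strand, with a summed gene length of 15065 bp. The stretch held 26 unannotated loci and 0 annotated rows, and 8 of the 24 had the fibronectin type III domain entered. Annotated rows described as titin lay on both sides, AABR07052585.1 toward the start of transcription and AABR07052585.2 toward the end. In GRCr8, Ttn lies between the outer neighbours, Plekha3 and Ccdc141.

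Summed over the 24 loci there were 0, 23 and 0 counts (Gel) and 581, 6 and 41 counts (MgPA-Gel). MgPA-Gel 1 was the highest library at each of the 24 loci, and Gel 1, Gel 3 and MgPA-Gel 2 were together at 0 in 23. None of the 24 passed the filter on low counts, so no test was made. A sum of 0 in a library allows up to 3 counts, for counting error only. The annotated row on the end side had 134, 105 and 4 counts in Gel and 7471, 22 and 582 in MgPA-Gel, and that on the start side 0, 0 and 0 and 44, 0 and 6. The highest locus, chr3:63802615-63805271, reached 106 counts in MgPA-Gel 1, against 7 or fewer in each other library. All of these were highest in the library with the highest muscle marker sum.

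**Figure D4:**
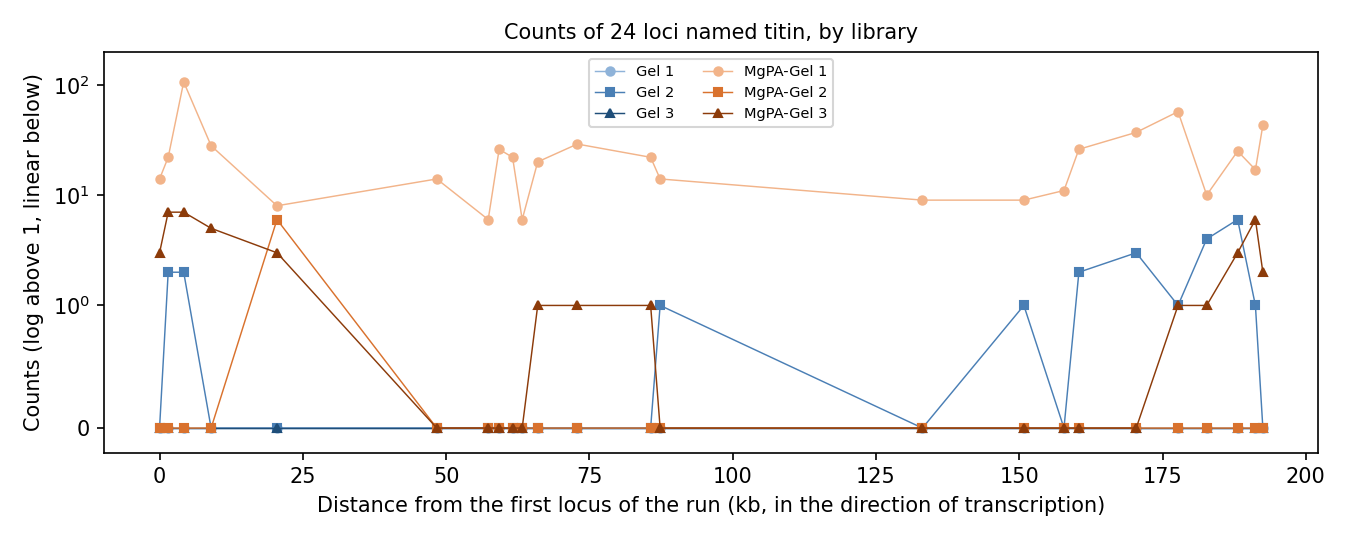
Counts of 24 loci named titin in each library (log axis above 1 count, linear below) against distance in kb from the first locus in the direction of transcription. MgPA-Gel 1 lies above the other libraries at each locus, with up to 106 counts, while most points of Gel 1, Gel 3 and MgPA-Gel 2 are at 0.

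A locus named for the ubiquitin ligase NEDD4 (chr12:46296945-46299361), chosen after its values were seen, had 339 counts in MgPA-Gel 1 and 0 to 8 in the others, and was not tested. A locus at chr1:106968905-106974463, 20 bp past the end of Ano5, a membrane protein of muscle, had 5.34, 3.35 and 0.953 CPM in Gel and 79.6, 3.79 and 4.04 CPM in MgPA-Gel. At both the highest library was MgPA-Gel 1 and the other 5 were far lower.

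Of the loci led by MgPA-Gel 2, 2 are given in full. The first (chr8:46228069-46287172, 8135 bp, minus strand) carried the name sortilin-related receptor, and Sorl1 lies on the same relative strand among 12 genes between its flanks in GRCr8. It had 2.40, 8.55 and 1.10 CPM in Gel and 12.9, 136 and 6.09 CPM in MgPA-Gel, where MgPA-Gel 3 lay below Gel 2. The most alike annotated genes were Csf3r, the receptor for the granulocyte growth factor G-CSF (difference 0.29), and Hcar2, a receptor for hydroxy acids on neutrophils and other cells (0.35). Csf3r itself had 9.04, 44.8 and 5.94 CPM in Gel and 41.4, 628 and 41.3 CPM in MgPA-Gel. The log2 fold change of the locus was 3.67 ± 1.43 (SE; unadjusted p = 0.0421, adjusted p = 0.998, edgeR), and 1.23 without MgPA-Gel 2.

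The second (chr2:232267570-232273075, 2614 bp, minus strand), near Fam241a and with no description, had 1.10, 2.25 and 0 CPM in Gel and 3.25, 83.1 and 2.87 CPM in MgPA-Gel. The 3 MgPA-Gel libraries lay above the 3 Gel libraries, 2 of them by little. Its most alike genes were Il1r2, the decoy receptor of interleukin-1 (0.36), and G0s2, an inhibitor of fat breakdown (0.46). The log2 fold change was 4.69 ± 1.82 (SE; unadjusted p = 0.0418, adjusted p = 0.998, edgeR), and 1.43 without MgPA-Gel 2.

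Of the other loci that MgPA-Gel 2 led, that between Pfkfb3 and Prkcq (chr17:70792264-70803257) reached 63.0 CPM and that 8037 bp before the start of Il7 (chr2:96406358-96431249) 45.1 CPM, against highest values elsewhere of 7.86 and 5.88 CPM. The neutrophil and inflammatory macrophage sums were also highest in MgPA-Gel 2, and their part in these values was not tested. A locus named for the neutrophil antibiotic peptide NP-2 (chr16:75387297-75389909) was led by MgPA-Gel 1 instead. It had 1.51, 0.173 and 0.733 CPM in Gel and 9.5, 0.757 and 0.819 CPM in MgPA-Gel.

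The last comparison asks whether the loci differed between MgPA-Gel and Gel. None did at the threshold. Of the 700 tested, 0 passed a Benjamini-Hochberg adjusted p of 0.05 in edgeR's quasi-likelihood test, and percent called among all 14818 genes was 0.0%. No adjusted p was below 0.998. Before adjustment, 20 loci (2.86%) had a p under 0.05, beside 2.63% of all genes tested (389). Of these 14 were higher in MgPA-Gel, beside 1.78% of all genes, and 6 lower, beside 0.844%. With a library left out, more loci were tested. The 20 became 35 (4.52%, beside 4.19% of all genes) without MgPA-Gel 1, 31 (3.85% beside 4.93%) without MgPA-Gel 2 and 42 (5.30% beside 4.39%) without MgPA-Gel 3. They became 19 (2.37% beside 1.44%) without Gel 1, 26 (3.23% beside 2.67%) without Gel 2 and 17 (2.12% beside 1.38%) without Gel 3. With no filter beyond 1 count, 45 of 1630 loci (2.76% beside 2.19%) were under 0.05. DESeq2 called 1 locus, beside 0.0681% of all genes (10), and limma-voom called 0, with 11 loci (1.57%, beside 1.65% of all genes) at an unadjusted p under 0.05. In 48 loci (6.86%) the groups did not overlap, 24 in each direction. That is near the 6.88% of all genes tested (3.26% higher and 3.62% lower). The median log2 fold change was 0.05, with 379 loci higher and 321 lower, beside 0.03 over all genes, and the median absolute value was 0.34 beside 0.20.

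The locus that DESeq2 called lay on the scaffold AABR07024203.1, from 59436 to 95598 (2024 bp, plus strand), and was named for the beta subunit of AP-2, the adaptor complex of clathrin-coated pits at the cell surface. It lay 529 bp before the start of LOC108348326. Its counts were 68, 66 and 44 in Gel and 4, 12 and 15 in MgPA-Gel, which is 4.66, 3.81 and 3.225 CPM in Gel and 0.25, 0.757 and 0.878 CPM in MgPA-Gel. The 3 Gel libraries lay above all MgPA-Gel libraries. The means were 3.90 ± 0.721 and 0.628 ± 0.333 CPM (SD, n = 3 each), with a log2 fold change of -2.62 ± 0.53 (SE), an unadjusted p of 0.00190 and an adjusted p of 0.998 in edgeR, and an adjusted p of 0.0119 in DESeq2. Without each library in turn the log2 fold change ran from -2.94 to -2.24. AP-2 subunits have close relatives, so reads may be shared with another copy, which was not tested.

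The smallest p was that of the locus at chr11:86037009-86037583 (467 bp), named for an immunoglobulin lambda variable segment. Its counts were 35, 16 and 13 in Gel and 2, 1 and 2 in MgPA-Gel, with no overlap. The log2 fold change was -3.70 ± 0.71 (SE; unadjusted p = 0.00137, adjusted p = 0.998, edgeR). B and plasma cell markers (6 of 7 matched) summed to 85.6 to 168 CPM in Gel and 60.4 to 131 CPM in MgPA-Gel, overlapping between groups. Also lower on average were a locus at chr6:33699395-33717687, 8094 bp before the start of Rhob, a small GTPase, with 8.22, 8.55 and 8.57 CPM in Gel and 4.50, 4.73 and 5.97 CPM in MgPA-Gel, and one at chr3:124546373-124548370, 473 bp past the end of Prnd, which encodes the prion-like protein doppel. The latter had 18.8, 28.4 and 11.2 CPM in Gel and 9.38, 9.65 and 10.9 CPM in MgPA-Gel. Their log2 fold changes were -0.74 ± 0.24 and -0.96 ± 0.34 (SE), with adjusted p = 0.998 in edgeR for both.

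On the higher side the smallest p was that of the locus at chr20:10701844-10708895 (586 bp), with no description. Its counts were 2, 1 and 1 in Gel and 12, 15 and 14 in MgPA-Gel, with no overlap and few reads, and the log2 fold change was 3.14 ± 0.64 (SE; unadjusted p = 0.00195, adjusted p = 0.998, edgeR). A locus at chr2:52826415-52830387 (715 bp) had 4, 10 and 9 counts in Gel and 84, 21 and 42 in MgPA-Gel. Another (chr6:28367600-28369476, 1762 bp), named for YIPF4 of the Golgi, had 1.37, 1.62 and 1.91 CPM and 2.38, 6.94 and 4.97 CPM. At both, the 3 MgPA-Gel libraries lay above the 3 Gel libraries, with log2 fold changes of 2.56 ± 0.67 and 1.54 ± 0.47 (SE; adjusted p = 0.998 each, edgeR).

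The locus at chr6:91475380-91476625 (587 bp, minus strand), named for the ribosomal protein RPL36a, lay 73 bp before the start of Mgat2, a Golgi enzyme of N-glycan branching, on the opposite strand. It had 13, 1 and 1 counts in Gel and 443, 6 and 224 in MgPA-Gel. MgPA-Gel 1 and MgPA-Gel 3 were high, and MgPA-Gel 2 lay between Gel libraries. The muscle marker sum was likewise highest in MgPA-Gel 1 (41630 CPM) and next in MgPA-Gel 3 (1460.0 CPM), against 11.9 to 523.5 CPM in Gel, and its part in this value was not tested. Mgat2 itself had 91.1, 103.6 and 103.6 CPM in Gel and 58.3, 102 and 102.0 CPM in MgPA-Gel, so it did not share that pattern. The log2 fold change of the locus was 5.32 ± 1.69 (SE; unadjusted p = 0.0194, adjusted p = 0.998, edgeR), from 4.30 to 7.56 with each library left out. Many copies of ribosomal protein genes exist, so reads may be shared with another copy, which was not tested.

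**Figure D5:**
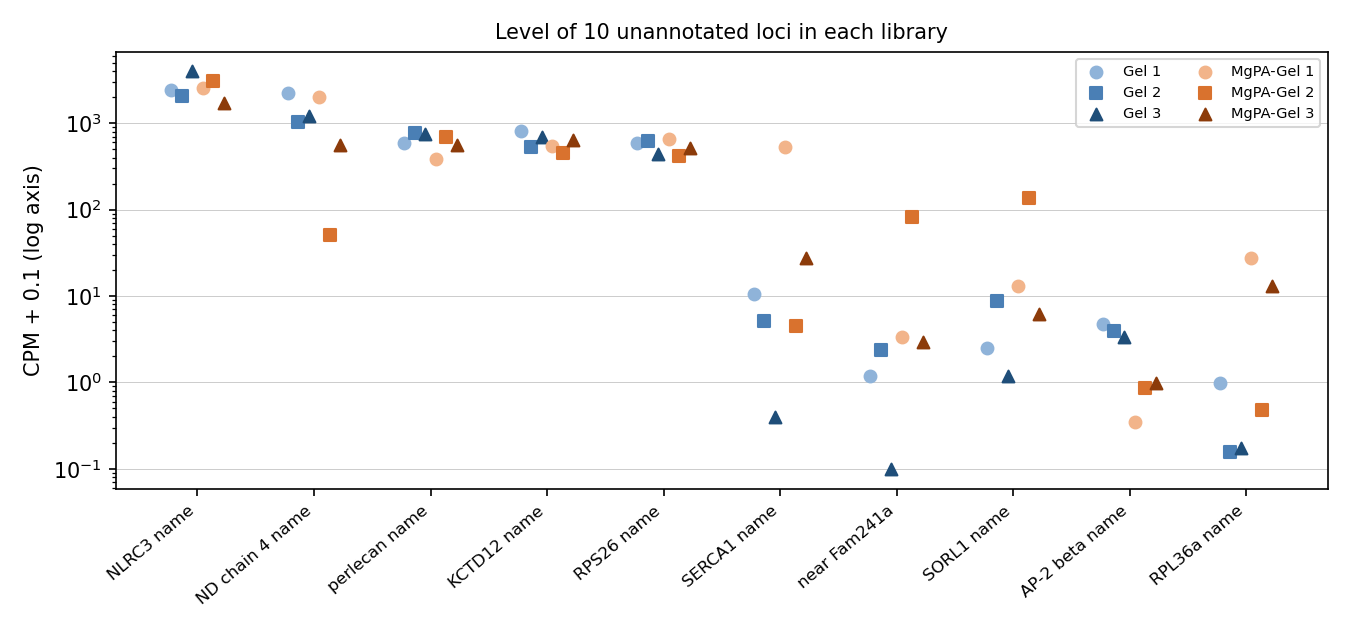
CPM + 0.1 on a log axis for 10 unannotated loci, 1 point per library (blue, Gel; orange, MgPA-Gel). The 5 abundant loci on the left overlap between groups, the SERCA1-named locus is highest in MgPA-Gel 1 (528 CPM), the locus near Fam241a and the SORL1-named locus in MgPA-Gel 2 (83.1 and 136 CPM), and the AP-2-named locus is lower in all 3 MgPA-Gel libraries.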

How the data were processed

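Poly-T selected RNA was sequenced in 6 libraries, 3 per group, grouped by title. Inputs of 1.3 µg of RNA and fragments of 370 to 420 bp were used, per the labels' protocols. The submitters' processing notes list fastp, StringTie 1.3.3b, HISAT2 2.0.5, edgeR 3.22.5, DESeq2 1.20.0 and featureCounts 1.5.0-p3 without saying what each was used for. Build and strandedness are not given in the sources used here. As deposited, the gene table holds whole counts, not normalized, and a further table deposited by the authors holds FPKM of the same rows. In the count table, 11692 blank rows and 2 unnamed columns were left out. MgPA-Gel was compared with Gel by quasi-likelihood in edgeR 4.0.16 under R 4.3.3 (filterByExpr, TMM, robust fit, two-sided) over all 14818 genes passing the filter, with Benjamini-Hochberg adjustment at 0.05. CPM is on TMM-adjusted library sizes. Alternatives used DESeq2 1.42.0 (default independent filtering, leaving 14693 genes with an adjusted p) and limma 3.58.1. Shares were compared with an exact permutation test over libraries. The fit was tested on simulated data.

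Members and lists were chosen with earlier results of these data known. Loci were described by rule: the 8 most abundant, the 4 smallest p in each direction, the 4 of largest ratio of highest to lowest library (CPM + 0.5), the 3 of smallest coefficient of variation, the 4 most abundant on scaffolds, the 3 longest, and the 2 most abundant per description class. The LINE-1, PECAM1, NEDD4 and NP-2 loci and the titin run were chosen after their values were seen. So were those beside Ano5, Pfkfb3, Il7, Oip5 and the microRNA genes. A few loci, of which 1 falls under the rule, are not reported here. Neighbours came from the authors' coordinates, and GRCr8 from RefSeq served for gene names and order.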

Additional observations from a re-analysis of the deposited data

How the results depend on the processing

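No unannotated locus was called under 15 of 16 alternatives to the edgeR fit, with 0 in each fit that left out a library. The DESeq2 test called 1, the AP-2-named scaffold locus. Deviations from the group mean correlated at 0.249, 0.200 and -0.027 between samples of the same replicate number (1 to 3). Between samples of unlike number they correlated from -0.286 to 0.059, so numbers 1 and 2 stood above these and number 3 did not. The main fit did not take the numbers as pairs, and with the number as a replicate block 0 loci were called. For the share of counts the replicate block gave -0.0380 percentage points (exact sign-flip permutation p = 1, smallest possible 0.25), and for scaffold loci -9.85e-05 (p = 0.5 by the same exact permutation test). With the 5 most abundant loci removed the share differences reversed to 0.0910 (all loci) and 0.000165 (scaffold loci), and on FPKM the scaffold difference reversed to 0.00131. With each library left out the share difference ran from -0.0820 to 0.0184 and the scaffold difference from -0.00021 to -2.67e-05. With at least 10 counts in 3 libraries 717 loci were tested, and with no filter beyond 1 count 1630; 563 reached 1 CPM in 3 libraries, a count with no test. The median coefficient of variation ran from 38.6% to 44.4% with each library left out, and fell to 25.7% at a mean count of at least 100 (other genes 20%), where fewer low genes remain. Of 304 log2 fold changes over 19 loci 298 kept their direction. Those that reversed with a library left out were those named for NLRC3 (0.114 and 0.00452, range -0.406 to 0.114), beside Gda (-0.205, range -0.205 to 0.593), beside Actr2 (0.0461, range -0.197 to 0.0461) and named for RPS26 (0.0397 and 0.0872, range -0.232 to 0.0872); the cause was not tested. Of the loci, 955 had too few counts to enter the test.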
